A study of Mus musculus with 6 samples.

Results

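The genes described here encode the subunits of voltage-gated sodium and calcium channels, the sodium leak channel Nalcn, the HCN pacemaker channels and the TRP cation channels of the C, M and V families, with the calcium channel adaptors of the STAC family. They were taken by gene symbol alone, and 44 of the 13170 genes in the deposited table carry such a symbol. Of these, 42 had a mean of at least 1 FPKM (fragment counts scaled by transcript length and library depth) and entered the test, and Scn7a and Trpv6 lay below it. Trpc4ap has a symbol of this kind but encodes a protein that binds TRPC4 and is no channel. Stac, the other adaptor that was looked for, was not analysed here. Stac3, of the same family, fell outside the symbols taken and was counted with the partners described last. It had a log2 difference of 0.20 (SE 0.0782; limma adjusted p = 0.582).

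The libraries were made from polyadenylated RNA of brain tissue of C57 mice, 3 from animals labelled as having high sexual motivation (the high group) and 3 from animals labelled low (the low group). No treatment or altered allele is named for either group, and the series title speaks of adult males. The title and design place the tissue in the medial amygdala, while the protocol names PrL tissue. All 14 listed neuronal markers were present at 9.13 FPKM or more in every library. The labels do not say whether a library came from 1 animal or from a pool, so a p-value here measures the spread between libraries, which may be partly technical.

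Voltage-gated sodium channels carry the rising phase of the action potential, and their beta subunits set how fast the pore opens, closes and reaches the membrane. Among calcium channels, P/Q-, N- and R-type pores trigger transmitter release, L-type pores couple activity to transcription, and T-type pores open near the resting potential and drive burst firing. HCN channels open on hyperpolarisation and pass the pacemaker current, Nalcn passes a steady leak of sodium, and TRP channels respond to lipids, heat, stretch or calcium. In bulk tissue such as this, fewer cells of a type and less RNA per cell cannot be told apart.

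None of the 42 tested genes passed at an adjusted p under 0.05 in limma, and over all 12026 tested genes the share called was 0% as well. At an unadjusted p under 0.05 there were 8 channel genes, or 19.0%, where the share over all tested genes was 8.39%. Of these, 6 were higher in the high group (background 4.12%) and 2 were lower (background 4.27%). The 3 high and the 3 low libraries did not overlap in 9 channel genes, or 21.4%, against 14.9% over all genes. These 9 comprised 6 with all high libraries above the low ones (background 7.33%) and 3 with all of them below (background 7.61%). Over the tested members 19 differences were positive and 23 negative, with a median log2 difference of −0.03 on the log2(FPKM + 1) scale, where the median over all tested genes was 0.00018. The median absolute log2 difference was 0.13 for the members and 0.08 for all tested genes. Every exact 2-sided permutation test of the 9 genes without overlap gave p = 0.1, the smallest that 3 against 3 libraries allow.

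**Figure D1:**
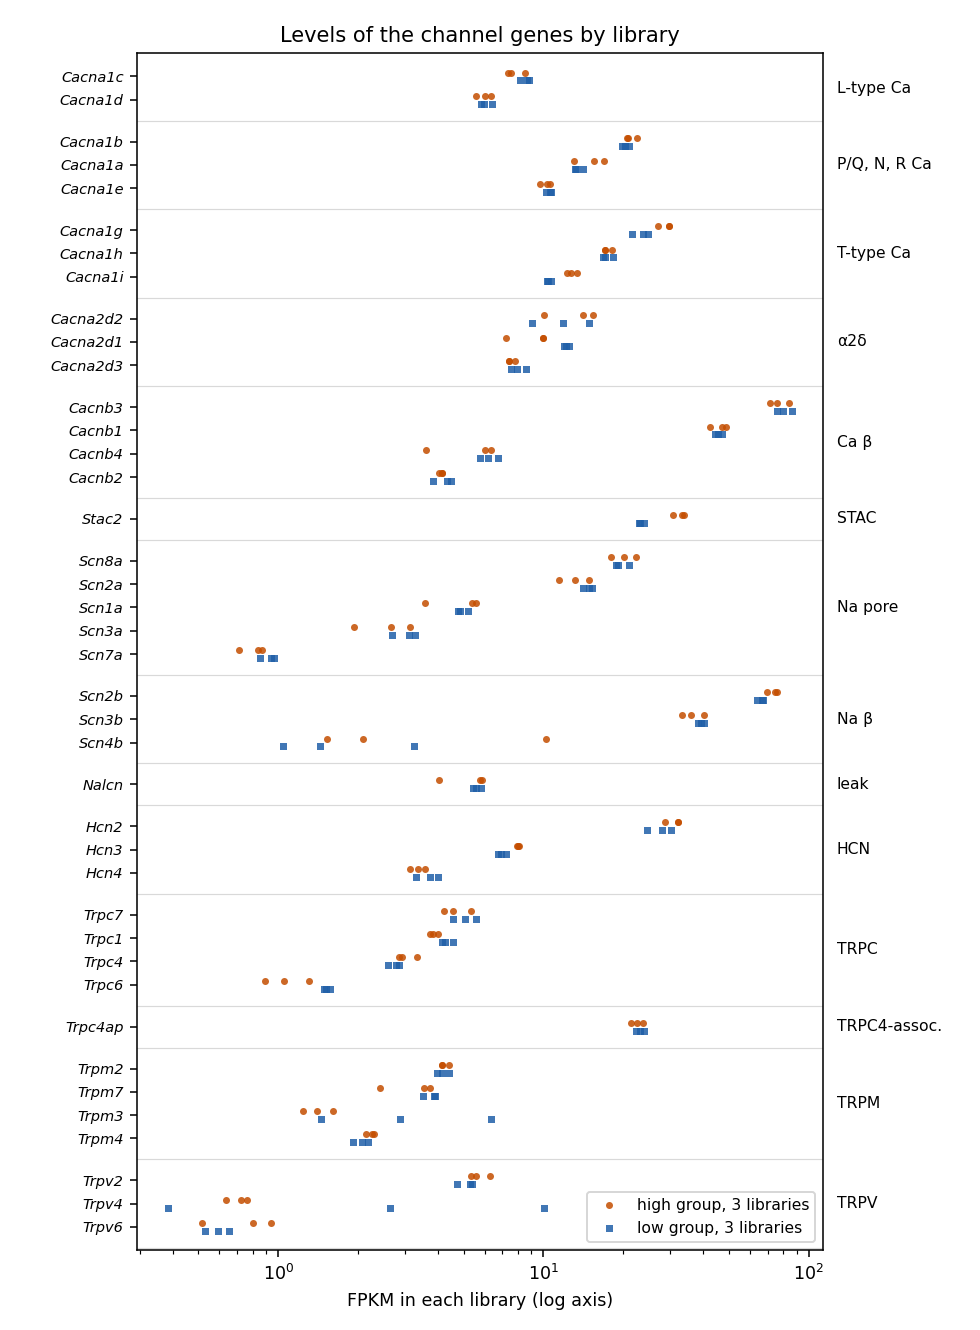
FPKM of 40 of the genes on a log axis, with 1 point per library (orange circles, high group; blue squares, low group), ordered by role and by mean level. Levels run from under 1 FPKM for Scn7a and Trpv6 to between 71.3 and 86.6 for Cacnb3, and the groups stand apart for Stac2, Cacna1g, Cacna1i and Cacna2d1.

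The promoters of the T-type pore gene Cacna1i and of the alpha2delta gene Cacna2d1 are shown first, because these genes lay in opposite directions and had the smallest p-values among the 4 of 8 genes at an unadjusted p under 0.05 that matched RefSeq promoters of GRCm38.p6. Each is the stretch of 250 bases before the annotated start, written 5′ to 3′ on the plus strand, with capitals for the GC box GGGCGG on either strand, overlapping matches included.
Cacna1i, chr15:80286988-80287237: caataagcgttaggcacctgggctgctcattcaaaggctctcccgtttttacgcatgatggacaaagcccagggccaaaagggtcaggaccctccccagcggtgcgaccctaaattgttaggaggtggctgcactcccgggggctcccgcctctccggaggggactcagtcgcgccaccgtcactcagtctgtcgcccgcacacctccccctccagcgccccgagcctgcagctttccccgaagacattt
Cacna2d1, chr5:15934441-15934690: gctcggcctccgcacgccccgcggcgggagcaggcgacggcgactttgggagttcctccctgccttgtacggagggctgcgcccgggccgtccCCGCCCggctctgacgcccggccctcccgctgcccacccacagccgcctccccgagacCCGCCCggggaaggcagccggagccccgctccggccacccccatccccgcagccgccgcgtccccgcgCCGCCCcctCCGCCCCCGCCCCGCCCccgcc
The Cacna2d1 stretch had a GC content of 82.4% with 36 CpG dinucleotides and 6 GC box matches. The Cacna1i stretch had 62.4% with 16 CpG dinucleotides and 0 matches. Over 32851 promoter stretches of the same length the median GC content was 52.4%, the median number of CpG dinucleotides was 6, and 32.7% held the GC box. Neither stretch held the letters TATAAA on either strand, which 12.4% of all stretches held. The transcripts themselves differed the other way round, with a GC content of 59.3% for Cacna1i and 40.7% for Cacna2d1.

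Among pore subunits of calcium channels, all 3 T-type genes had positive differences, and in 2 of them all high libraries lay above the low ones, which held for 7.33% of all tested genes. Neither passed the test. Cacna1g, the T-type pore with the highest level here, had 29.6, 27.1 and 29.6 FPKM across the high libraries, against 24.9, 21.6 and 23.6 across the low ones. Cacna1i, a T-type pore with slow gating, had 13.4, 12.7 and 12.2 FPKM across the high libraries against 10.7, 10.4 and 10.3. Every high library lay above every low library in both genes. The log2 difference of Cacna1g was 0.29 (SE 0.0730; limma adjusted p = 0.505), and that of Cacna1i was 0.27 (SE 0.0623; limma adjusted p = 0.505), with group means 1.23 and 1.22 times those of the low group. Cacna1h, the third T-type pore, had means of 17.5 ± 0.599 (SD, n = 3) against 17.4 ± 0.875 FPKM, a log2 difference of 0.01 with a 95% interval of −0.14 to 0.16. Leaving out each library in turn gave −0.018 to 0.047, so its sign was not stable. The Cacna1h share of the summed T-type FPKM was 29.6% ± 0.533 (SD, n = 3) for the high and 33.9% ± 0.915 for the low group. Since its own level hardly differed, the lower share follows from the higher sum. The summed T-type level was 61.2, 56.9 and 59.0 FPKM across the high libraries, against 53.9, 49.0 and 50.7 across the low ones. Both genes kept an unadjusted p under 0.05 in each of 19 alternative analyses, and neither reached an adjusted p under 0.05 in any of them. Cacna1g lies on chromosome 11 from 94408391 to 94474198 and Cacna1i on chromosome 15 from 80287238 to 80398279 in GRCm38.

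The high-voltage pores overlapped between the groups. Cacna1b, the N-type pore of release sites and the most abundant of them, had 20.7, 22.5 and 20.7 FPKM across the high libraries, against 21.03, 19.8 and 20.3 across the low ones (log2 difference 0.06, SE 0.0618, and 0.024 without high library 2). Cacna1a, the P/Q-type pore, had 15.5, 16.98 and 13.01 FPKM across the high libraries against a low mean of 13.5 ± 0.482 (SD, n = 3), and Cacna1e, the R-type pore, stood at 10.2 ± 0.446 against 10.5 ± 0.230. Of the L-type pores, Cacna1c had 7.35, 8.53 and 7.55 FPKM across the high libraries, against 8.85, 8.69 and 8.15 across the low ones, so that high library 2 lay within the low range. Its log2 difference was −0.12 (SE 0.0754; limma adjusted p = 0.664). Cacna1d differed by −0.02, with a 95% interval of −0.19 to 0.15.

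Alpha2delta subunits carry the pores to the surface and to release sites, and Cacna2d1 is a binding site of gabapentin. Cacna2d1 had 9.97, 7.19 and 9.997 FPKM across the high libraries, against 11.9, 12.2 and 12.5 across the low ones. All high libraries lay below the low ones, and high library 2 was the lowest. The log2 difference was −0.41 (SE 0.115; limma adjusted p = 0.548), and it was −0.27 without high library 2. Its share of the summed alpha2delta FPKM was 30.3% ± 1.54 (SD, n = 3) in the high group, compared with 38.2% ± 4.45 for the low group. Cacna2d2 had the highest level of the alpha2delta genes and varied widely within both groups, with 14.0, 10.1 and 15.4 FPKM across the high libraries, against 11.9, 14.9 and 9.06 across the low ones. Cacna2d3 was at 7.55 ± 0.252 against 8.04 ± 0.529 FPKM. Beta subunits, which bind the pore from inside the cell, overlapped in all 4 genes. The most abundant of them, Cacnb3, had 75.7, 84.6 and 71.3 FPKM against 80.1, 75.9 and 86.6, and Cacnb1 had 46.1 ± 3.29 against 45.7 ± 1.26. Cacnb4 measured 3.59 FPKM in high library 2 while the other 5 libraries held 5.77 to 6.72, and its log2 difference of −0.22 became −0.0088 without that library.

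Stac2, an adaptor that binds L-type channels and slows their inactivation, had the smallest p of all 12026 tested genes. It had 33.9, 30.8 and 33.2 FPKM across the high libraries, against 22.9, 23.1 and 23.99 across the low ones, so that the highest low value lay under the lowest high value. The log2 difference was 0.47, with a 95% interval of 0.32 to 0.61 (limma adjusted p = 0.363), and leaving out each library in turn gave 0.44 to 0.50. The interval is not corrected for the number of genes tested. In the authors' deposited table its log2 fold change is 0.483 with p = 0.000712, from an equal-variance test with no adjustment. Its L-type partners Cacna1c and Cacna1d had log2 differences of −0.12 and −0.02, and neither they nor Stac2 passed the test. Leaving out each library in turn gave −0.055 to 0.025 for Cacna1d, so its sign was not stable. Stac2 lies on chromosome 11 from 98036623 to 98053462.

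**Figure D2:**
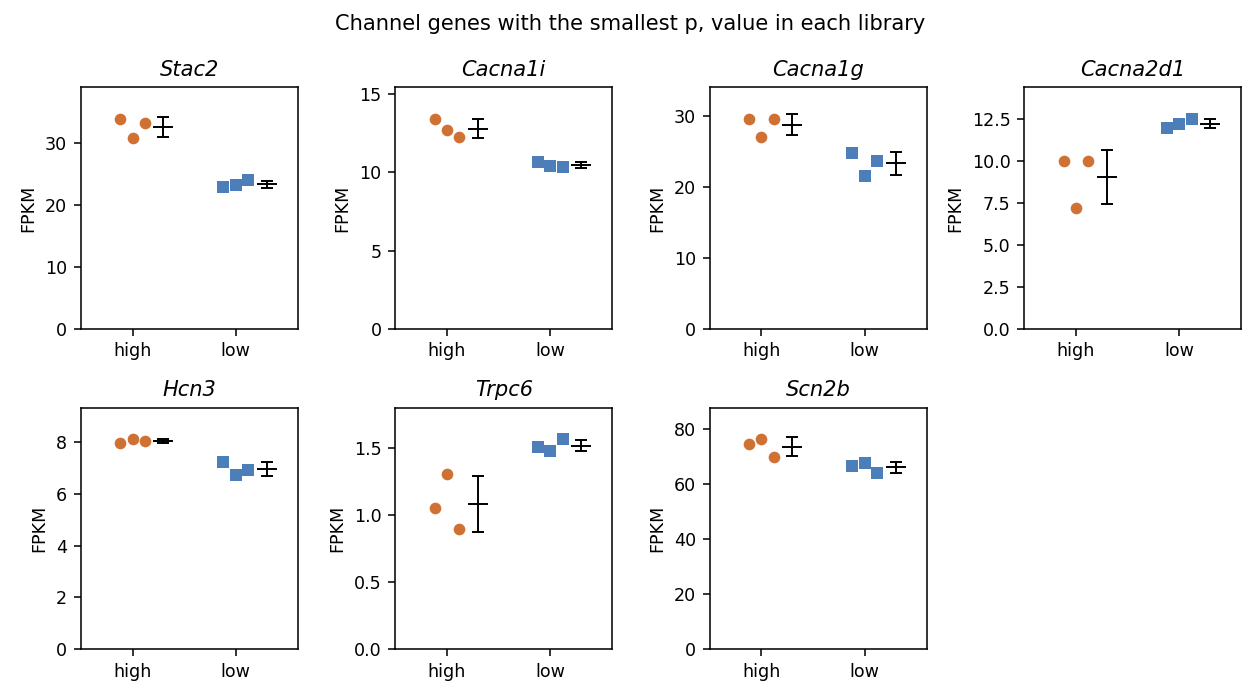
FPKM in each library for 7 channel genes with an unadjusted limma p under 0.05, ordered by p, with the mean and SD of 3 libraries beside the points and axes from 0. The groups do not overlap in any of the 7 panels, which the choice by p from these same values favours. Over all tested genes 14.9% did not overlap. Cacna2d1 and Trpc6 are the genes with lower values in the high group.

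The sodium channel pores described here overlapped between the groups. Scn8a, the pore of the axon initial segment and nodes and the most abundant one here, had 20.1, 22.3 and 18.0 FPKM across the high libraries against 18.8, 19.1 and 21.03. Scn2a, an axonal pore of excitatory neurons, had 13.1 ± 1.69 (SD, n = 3) against 14.7 ± 0.594 FPKM, Scn1a, a main pore of fast-spiking interneurons, had 4.82 ± 1.10 against 4.94 ± 0.241, and Scn3a, which is best known from the developing brain, had 2.58 ± 0.614 against 3.02 ± 0.302. Scn7a, a pore that senses sodium rather than voltage, was at 0.806 ± 0.0845 against 0.917 ± 0.0550 FPKM, with an unfiltered log2 difference of −0.09.

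Beta subunits were among the most abundant sodium channel transcripts. Scn2b, which links to the pore by a disulfide bond, had 74.5, 76.1 and 69.5 FPKM across the high libraries against 66.6, 67.5 and 63.8, with all high libraries above the low ones by a narrow margin. Its log2 difference was 0.15 (SE 0.0623; limma adjusted p = 0.582), and its unadjusted p was under 0.05 in 10 of 19 alternative analyses, and at most 0.312 in the others. Scn3b overlapped, at 36.6 ± 3.56 (SD, n = 3) against 39.3 ± 1.08 FPKM.

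Scn4b, the beta subunit of resurgent sodium current, was the member whose SD in the high group exceeded its mean there (4.62 ± 4.89 FPKM, SD, n = 3). It had 10.3, 1.52 and 2.09 FPKM across the high libraries, against 1.04, 3.24 and 1.43 across the low ones, so that high library 1 and low library 2 stood highest. Its log2 difference of 0.69 (SE 0.534) became 0.017 without high library 1. A list of 8 genes of striatal projection neurons, chosen after Scn4b had been seen, was highest in the same 2 libraries. Its genes summed to 130.04, 52.3 and 68.5 FPKM across the high libraries, against 68.6, 110.3 and 68.6 across the low ones, and the lowest value of any of its genes was 0.854. Adora2a, the adenosine receptor gene of striatopallidal neurons, measured 14.6 FPKM in high library 1 and 14.99 in low library 2, with 1.20 to 5.62 elsewhere. Not every listed gene followed this pattern. Ppp1r1b had 38.7 FPKM in low library 2 and 39.1 in low library 3, and Pde10a had 5.85 in low library 2 and 5.92 in low library 1. The rest of the list was highest in high library 1 and low library 2. The part of these cells in the Scn4b values was not tested.

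Nalcn had 5.87, 4.05 and 5.75 FPKM across the high libraries, against 5.55, 5.82 and 5.40 across the low ones, with high library 2 below all the others. Its log2 difference was −0.10, with a 95% interval of −0.38 to 0.18, and it was 0.047 without high library 2.

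Of the HCN channels, Hcn3 stood without overlap and within a narrow range, at 7.96, 8.09 and 8.04 FPKM across the high libraries, against 7.24, 6.72 and 6.92 across the low ones. The log2 difference was 0.18 (SE 0.0626; limma adjusted p = 0.571). Its unadjusted p exceeded 0.05 without low library 2, without low libraries 1 and 3 together, and with the replicate block and the GC trend combined, to at most 0.0744. In the GENCODE annotation 711 exonic bases of Hcn3, or 17.1%, overlap Pklr on the opposite strand. Pklr was not analysed here. The library protocol keeps the strand of the RNA, but the sources used here do not say if counting used it, which also touches Cacnb4, with 16.0% of its exonic bases shared with A430018G15Rik. Hcn2, the most abundant HCN gene with 66.4% to 68.5% of the summed HCN FPKM by group mean, had 32.3, 32.1 and 28.6 FPKM across the high libraries against 28.0, 24.6 and 30.2, and its groups overlapped (log2 difference 0.16, SE 0.0876; limma adjusted p = 0.614). The difference was 0.088 without low library 2 and 0.32 without low libraries 1 and 3. Hcn4, the slow channel of the heart's pacemaker, was at 3.36 ± 0.224 (SD, n = 3) against 3.68 ± 0.343 FPKM.

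TRPC channels open downstream of phospholipase C, and 4 of the 5 genes had negative differences. Trpc6, gated by diacylglycerol, had 1.05, 1.31 and 0.895 FPKM across the high libraries, against 1.51, 1.48 and 1.57 across the low ones. Trpc1, a subunit of mixed TRPC channels, had 3.73, 4.02 and 3.83 FPKM against 4.13, 4.55 and 4.26. All high libraries lay below the low ones in both genes, which held for 7.61% of all tested genes. The log2 difference was −0.28 for Trpc6 (SE 0.105; limma adjusted p = 0.582) and −0.13 for Trpc1 (SE 0.0729; limma adjusted p = 0.638). The unadjusted p of Trpc6 was under 0.05 in 9 of 19 alternative analyses, and that of Trpc1 was 0.115. With a pseudocount of 0.1 in place of 1 the Trpc6 difference was −0.47, and with the GC and length trend removed that of Trpc1 was −0.07. Trpc7, which had the highest level in the family, overlapped at 4.58, 5.31 and 4.21 FPKM across the high libraries, against 5.56, 5.05 and 4.56 across the low ones. Trpc4 was the TRPC gene with a positive difference, at 3.04 ± 0.267 (SD, n = 3) against 2.75 ± 0.136. Trpc4ap overlapped, with 22.6, 23.7 and 21.5 FPKM against 23.1, 22.3 and 24.0.

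The widest differences among all members were those of Trpm3 and Trpv4, and they rested on 2 low libraries. Trpm3, a heat- and steroid-gated channel, had 1.23, 1.40 and 1.61 FPKM across the high libraries, against 2.88, 1.45 and 6.33 across the low ones. Trpv4, an osmosensitive channel, had 0.722, 0.762 and 0.635 FPKM across the high libraries, against 2.63, 0.385 and 10.04 across the low ones. Low library 3 was highest and low library 1 next in both genes, while low library 2 lay among or below the high libraries. The log2 difference was −0.77 for Trpm3 (SE 0.336; limma adjusted p = 0.596) and −1.16 for Trpv4 (SE 0.618; limma adjusted p = 0.614). Leaving out low library 3 brought them to −0.36 and −0.40, and leaving out low library 2 to −1.15 and −1.89.

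Both channels are known from the epithelium of the choroid plexus, and its markers were high in the same libraries. The 13 listed markers summed to 71.8, 112 and 42.1 FPKM in the high libraries and to 1343, 82.7 and 4186 in low libraries 1, 2 and 3. The sum in low library 2 thus lay within the range of the high libraries. All 11 tested markers had negative differences between the groups, 7 of them at an unadjusted p under 0.05 and 0 at an adjusted one in limma. Over all tested genes 4.27% were lower at that unadjusted p. Of the 13 markers, 0 were listed at 0 in any library. Without low libraries 1 and 3, which leaves 1 low library that is assumed to vary like the high ones, the difference was −0.03 for Trpm3 and 0.30 for Trpv4. Ependymal markers, 9 of 11 of them listed, summed to 27.96 to 28.8 FPKM for the high and 37.9 to 67.1 for the low libraries. Here low library 2, at 37.9, lay above the high libraries as well. All 8 tested ependymal markers were lower at an unadjusted p under 0.05 and 0 at an adjusted one in limma. In 6 of them the groups did not overlap, where 7.61% of all tested genes were lower without overlap. The part of these cells in the Trpm3 and Trpv4 values was not tested further.

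**Figure D3:**
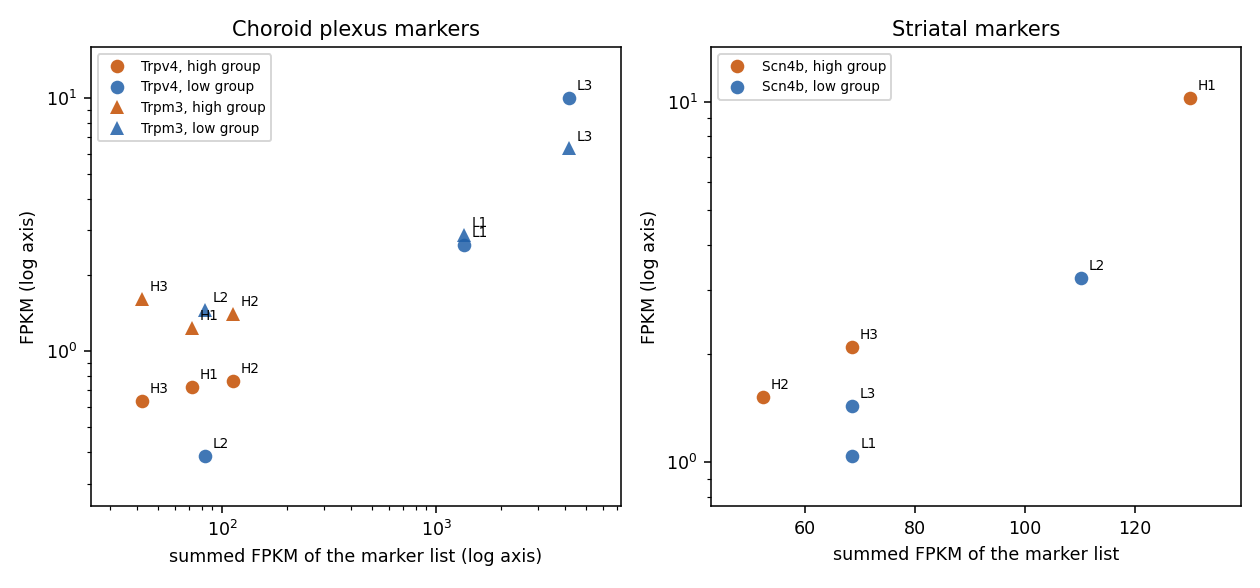
Left, FPKM of Trpv4 (circles) and Trpm3 (triangles) against the summed FPKM of 13 choroid plexus markers; right, FPKM of Scn4b against the summed FPKM of 8 striatal markers; 1 point per library (H, high group, orange; L, low group, blue). Low libraries 1 and 3 are high in both measures on the left, and high library 1 and low library 2 are high in both on the right.

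The remaining TRP genes overlapped. Trpm2, a channel opened by ADP-ribose and oxidative stress and the most abundant TRPM gene, had 4.15, 4.41 and 4.13 FPKM across the high libraries against 4.39, 4.14 and 3.95. Trpm7, a channel fused to a kinase, was at 3.23 ± 0.717 (SD, n = 3) against 3.77 ± 0.217 FPKM, and Trpm4, opened by internal calcium, at 2.24 ± 0.0845 against 2.06 ± 0.141. Trpv2, which led its family, had 6.30, 5.33 and 5.54 FPKM against 5.35, 5.27 and 4.73 (log2 difference 0.13, SE 0.0834, and 0.074 without high library 1). Trpv6, an epithelial calcium channel, was at 0.753 ± 0.215 against 0.591 ± 0.0632 FPKM, with an unfiltered log2 difference of 0.13. Trpv4, Trpv6 and Scn7a stood under 1 FPKM in all 3 high libraries, and at such levels a difference on this scale understates the change.

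**Figure D4:**
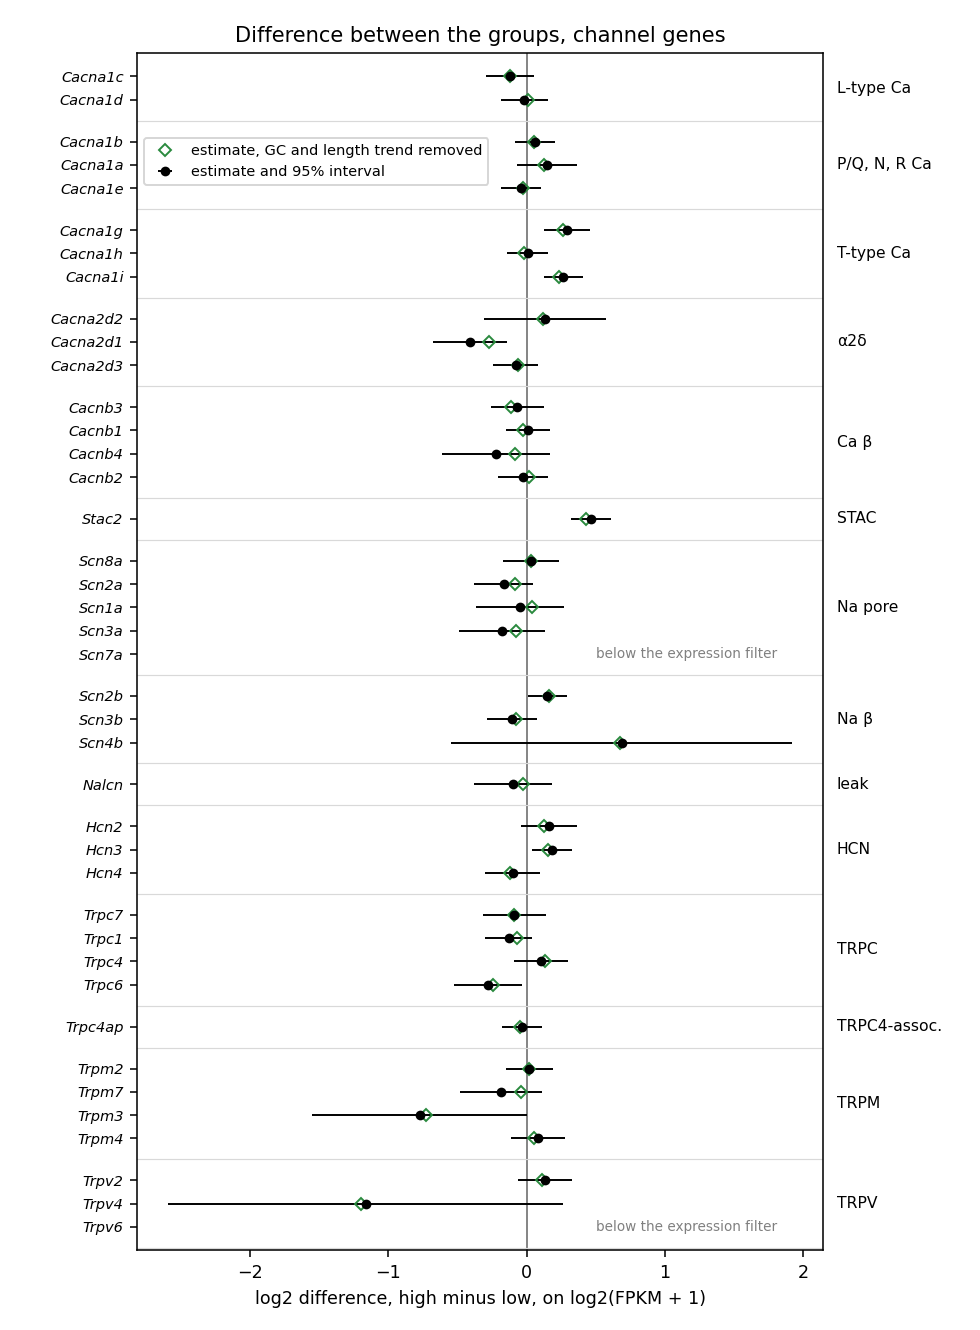
Log2 difference, high minus low, with its 95% interval from limma (black) for 38 tested genes by role, and the estimate with the GC and length dependence taken out (green diamonds). The intervals of Stac2, Cacna1g, Cacna1i, Hcn3 and Scn2b lie above 0 and those of Cacna2d1 and Trpc6 below it, none of them adjusted for the number of genes.

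The difference between the groups followed the base composition of the transcripts. Across the 42 tested members, which share the same 6 libraries, the log2 difference and GC content had a Spearman rho of 0.65, against 0.40 over 11924 tested genes with known GC content. Of 17 members with a GC content under 50%, a split chosen after the values were seen, 16 had negative differences, or 94.1%, where 66.2% of all such genes did. Of 25 members at or above 50%, 18 had positive differences, or 72.0%, where 64.3% of all such genes did. High library 2 had less than 0.8 times the lowest value of any other library in 7 members, among them Cacnb4, Trpm7, Cacna2d1, Scn3a, Scn1a and Nalcn with a GC content of 40.1% to 44.5%. Without high library 2 the rho across members was 0.39. A link to GC content thus remained with that library left out. The level of each member in a library was also set against its mean over the other libraries. Each library enters that mean for all others, so a shift in high library 2 alone moves every value. The values therefore cannot say which libraries carry the link. For this deviation, the rho with GC content was 0.28, 0.56 and −0.08 across the high libraries. It was −0.47, −0.61 and −0.32 across the low ones, strongest in low library 2. Over all genes these values were 0.09, 0.45 and −0.10 across the high libraries, against −0.24, −0.50 and 0.03.

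With the dependence on GC content and length taken out of every library, 8 members, or 19.0%, had an unadjusted p under 0.05, where the share over all genes was 7.73%. They were the same 8 genes as before the removal. The log2 difference was then 0.43 for Stac2, 0.27 for Cacna1g, 0.24 for Cacna1i and −0.27 for Cacna2d1. Cacnb4 moved from −0.22 to −0.09. The rho across members was 0.41 after the removal. Of the 17 members with a GC content under 50%, 13 still had negative differences, and 16 of the 25 others still had positive ones. The same values over all genes were not computed after the removal.

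**Figure D5:**
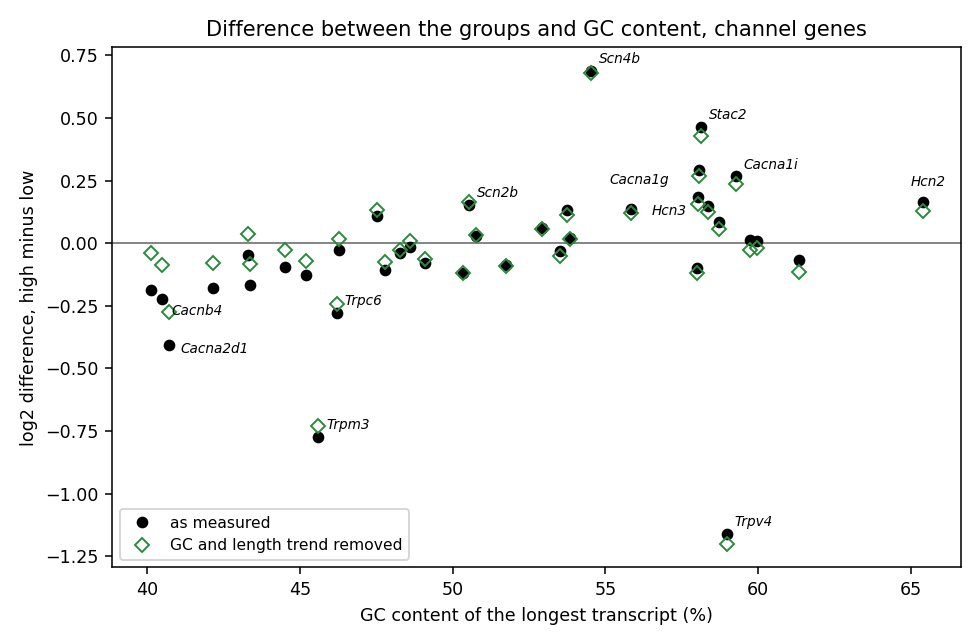
Log2 difference, high minus low, against the GC content of the longest transcript for 38 tested genes, as measured (black) and with the trend removed (green diamonds). Most genes under 50% GC lie below 0, and after the removal Cacnb4 lies nearer to 0 while Stac2, Cacna1g, Cacna1i and Cacna2d1 stay away from it.

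Partners of these channels that carry other names were listed as well, and 27 of 36 were in the table and tested. Of these, 13 had positive and 14 negative differences, with a median log2 difference of −0.01, and 0 passed at an adjusted p under 0.05 in limma. At an unadjusted p under 0.05 there were 4 higher and 2 lower, where the shares over all tested genes were 4.12% and 4.27%. Fgf13, an intracellular factor that binds sodium channel tails, had 28.1, 30.1 and 27.8 FPKM across the high libraries, against 34.7, 35.1 and 34.8 across the low ones. Fgf11, of the same family, had 20.6, 19.7 and 19.5 FPKM against 17.4, 15.5 and 18.0. The groups did not overlap in either gene, and they lay in opposite directions, with log2 differences of −0.27 (SE 0.0581) and 0.22 (SE 0.0708). Of the 27 partners, 6 lay higher and 2 lower without overlap, where the shares over all tested genes were 7.33% and 7.61%. Rrad, a small GTPase that inhibits calcium channels, had 5.16, 3.90 and 3.78 FPKM against 2.64, 3.34 and 2.75 (log2 difference 0.43, SE 0.121; limma adjusted p = 0.548). Kcne2, which can join HCN channels and is also on the choroid plexus list, had 0.159, 0.298 and 0.220 FPKM across the high libraries, against 5.70, 0.508 and 22.1 across the low ones.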

How the data were processed

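Poly(A) RNA libraries of 3 high and 3 low animals or pools were compared. The values were deposited by the authors as FPKM, by the name of their table, which has 1 column per library. The submitters' processing notes name fastp, HISAT2, StringTie and the build GRCm38. The authors' deposited log2 fold change equals the log2 ratio of the group means in all 13170 genes (tolerance 1e-06). The p-value in the authors' deposited table matches an equal-variance comparison of FPKM in all 13170 genes (relative tolerance 0.0001), with no adjustment.

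FPKM are not counts, so log2(FPKM + 1) was fitted with limma 3.58.1 (R 4.3.3) over the 12026 genes whose mean FPKM reached 1, using a variance trend, 2-sided tests and Benjamini-Hochberg adjustment. Members below that mean take unfiltered values from the fit to all genes. The fit was tested on simulated data with larger differences than those of the members without overlap. That test does not show how well differences of their size are found. GC content and length are those of the longest coding transcript in GENCODE M21 (GRCm38), with natural splines of 5 degrees of freedom for the removed trend, and 44 of 44 members matched. Other steps used Python 3.11.15 with scipy 1.17.1, pandas 2.3.3, matplotlib 3.10.9 and numpy 2.4.6. Absolute depth is unknown. Relative depth, from the most common ratio of low values over 1428 genes with FPKM under 1.5, was 0.870 to 1.21 times the mean, highest in high library 2.

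The members, lists and alternatives were chosen with earlier results of these data known. Values in every library are given for the 10 members with the smallest p, the highest member of each role group, Stac2, Nalcn, members without overlap, Trpm3 and Trpv4, and for up to 4 partners with the smallest p; Scn4b and Adora2a were added after their values were seen. Of the 44 members, 4 enter every fit and count and are otherwise not reported here or drawn. Of the lists of other cells, neurons (14 genes) summed to 1112 to 1274 FPKM in the high and 1111 to 1190.3 in the low group, oligodendrocytes (10) to 353 to 423 and 324 to 359, their precursors (7) to 76.1 to 85.0 and 77.7 to 82.5, astrocytes (8) to 560.4 to 736 and 578 to 661, microglia (8) to 152 to 157 and 136 to 153, endothelium and mural cells (10) to 94.3 to 153 and 82.2 to 97.2, and leptomeninges (9) to 25.1 to 103 and 17.7 to 33.7.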

Additional observations from a re-analysis of the deposited data

How the results depend on the processing

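No alternative of 19 (other pseudocounts, filters and scalings, no variance trend, robust fitting, array weights, the GC and length trend, the replicate block, libraries left out) called a channel gene, a partner or any other gene at an adjusted p under 0.05 in limma. The smallest adjusted p of a channel gene ranged from 0.0766 (without high library 2) to 0.979 (without low libraries 1 and 3), and 4 (without those libraries, with 361 of all genes) to 11 members (array weights, with 1567) had an unadjusted p under 0.05. The median log2 difference of the members, −0.03, was 0.020 with only genes at a mean of at least 5 FPKM and −0.0051 without low libraries 1 and 3. With those 2 libraries left out 28 members had groups without overlap, where 50.7% of all genes did, and with 1 library left out 12 to 18, where 22.1% to 28.5% of all genes did, since fewer libraries overlap less often. Of 431 values of 23 members chosen by the rule for named genes, 419 kept their direction and 12 in 7 genes did not, none of them past the test. Without low libraries 1 and 3 the log2 difference was −0.19 for Cacna2d2, 0.021 for Cacnb3, 0.015 for Trpc4ap and 0.30 for Trpv4, and with array weights it was −0.0097 for Trpm2. With 1 library left out the range was −0.035 to 0.30 for Cacna2d2, −0.17 to 0.047 for Nalcn, −0.044 to 0.105 for Scn8a, −0.067 to 0.0016 for Trpc4ap and −0.0092 to 0.052 for Trpm2. The causes were not tested. Same-numbered libraries did not deviate together (correlations −0.09, −0.21 and −0.16 over tested genes). With so few libraries per group, other differences between libraries can mask a pairing, so these correlations cannot exclude one. With the replicate block 0 members passed and 7 had an unadjusted p under 0.05, with 743 of all genes. How depth limits these values is unknown, since the table holds no counts.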
